A study of Mus musculus with 3 samples.

Results

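Complement is followed here through 9 genes in leukocytes of the mouse aorta, chosen by name from the 32285 genes counted: C1qa, C1qb and C1qc, which encode the chains of C1q; C3 and C4b, the components cleaved as the cascade proceeds; Cfp, properdin; C3ar1 and C5ar1, the receptors for the fragments C3a and C5a; and Vsig4, a macrophage receptor for C3b and iC3b. Each symbol had 1 row in the deposited table, and all 9 were detected.

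The cells came from the aortas of 5 Jak2WT and 5 Jak2 V617F Myel mice (Jak2V617F MyC in the sample labels). In the mutant mice LysM-Cre, active in macrophages, monocytes and neutrophils and in part of the dendritic cells, switches on a conditional Jak2 V617F allele. The Jak2WT mice were littermate controls. Mice 6, 8 and 10 had aortic dilation without aneurysm, and mice 7 and 9 had an aneurysm. No mouse was treated, apart from the intravenous anti-CD45.2 antibody given before sacrifice by which circulating leukocytes were kept out of the sort. The age of these mice is not given in the sources used here. The cells of all 10 mice carried hashtag antibodies numbered 1 to 10, by which each mouse is called here, and were pooled into 1 sort and 1 droplet run, so that no run separates the groups. The sort was set to give about equal numbers of cells from each genotype, and cell numbers are therefore not compared between genotypes.

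C1q binds immune complexes, dying cells and other surfaces and starts the classical pathway, in which C4 and then C3 are cleaved and C3b is laid down on the surface. Properdin stabilizes the convertase of the alternative pathway, which amplifies that deposit. Unlike most plasma complement, which is made in the liver, C1q is made largely by macrophages and dendritic cells, and tissue macrophages use VSIG4 to take up opsonized particles.

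By position on GRCm38 (GENCODE vM21), the 3 C1q genes lay side by side on chromosome 4, all on the minus strand, with C1qb at chr4:136880129-136886187, C1qc at chr4:136889804-136893065 and C1qa at chr4:136895917-136898803. Gaps of 3616 bp and 2851 bp separate them, and the whole locus spans 18675 bp. C4b (chr17:34728380-34743882) and C3 (chr17:57203970-57228136) share a chromosome, and Cfp (chrX:20925454-20931555) and Vsig4 (chrX:96247203-96293438) are on the X chromosome. C3ar1 lies at chr6:122847138-122856161 and C5ar1 at chr7:16246743-16259540. The near-identical copy of C4b, C4a, gave 13 UMIs in all cells kept against 8988 for C4b, and reads shared by the copies cannot be told apart.

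Of the 9 genes, 7 have a promoter entry in RefSeq (GRCm38.p6), without C1qa and C4b. The 250 bases before the start of C1qb (chr4:136886201-136886450) and C1qc (chr4:136892915-136893164) are shown because these neighbors had nearly the same profile over cell types, and those of Vsig4 (chrX:96293439-96293688) because its level differed between genotypes. All are on the minus strand, written 5′ to 3′. Capitals mark GAGGAA, a core of sites of the myeloid factor PU.1, on either strand (TTCCTC on the reverse). RefSeq starts C1qc within the gene as GENCODE draws it, so that part of its window lies inside the span given above.
C1qb promoter: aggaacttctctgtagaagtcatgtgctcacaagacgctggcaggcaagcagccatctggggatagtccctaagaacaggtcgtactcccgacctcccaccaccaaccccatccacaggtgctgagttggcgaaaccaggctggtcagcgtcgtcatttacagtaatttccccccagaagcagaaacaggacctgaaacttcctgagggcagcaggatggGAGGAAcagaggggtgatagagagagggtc
C1qc promoter: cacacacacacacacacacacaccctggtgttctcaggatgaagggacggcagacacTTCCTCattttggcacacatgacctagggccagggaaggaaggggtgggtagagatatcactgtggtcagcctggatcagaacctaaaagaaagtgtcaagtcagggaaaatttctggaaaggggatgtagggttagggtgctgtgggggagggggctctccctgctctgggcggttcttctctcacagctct
Vsig4 promoter: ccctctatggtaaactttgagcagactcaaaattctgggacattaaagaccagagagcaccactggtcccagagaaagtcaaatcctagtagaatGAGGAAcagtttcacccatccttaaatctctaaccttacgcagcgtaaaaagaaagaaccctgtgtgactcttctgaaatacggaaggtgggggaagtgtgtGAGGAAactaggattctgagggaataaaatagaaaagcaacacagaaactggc
The core began 30 bases before the start in C1qb, 193 bases before it on the reverse strand in C1qc, and 155 and 53 bases before it in Vsig4. It was found in 3 of the 7 promoters and in 23.3% of all 32841 promoters of this length. Neither the STAT palindrome TTCNNNGAA, held by 7.02% of all promoters, nor the interferon response element (GAAA, any 2 bases, GAAA), held by 2.98%, was found in these 250 bases of any of the 7.

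After assignment by hashtag, 4871 cells were kept, 112 to 811 per mouse with 1038440 to 9643990 UMIs (unique molecular identifiers, each a counted transcript). Xist marked mice 1, 2, 6 and 7 (792 to 992 CPM, the usual depth-scaled UMI count of the summed cells, against 1.7 to 6.1 in the others), so each genotype held 2 such mice of 5. Of 2116 macrophages, 389 in clusters of low RNA content were set aside and 1727 kept. Of these, 578 were resident macrophages (the subsets Res-MGL1hi, Res-Txniphi and Res-S100hi, named in the study). Clusters were made without the 9 genes and without 47 other genes of the complement pathway. All cells shared the free RNA of 1 pool, and a transcript found at a like low level in every cell type is read as that background.

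C1q marked the macrophages. In resident macrophages C1qa reached 7153 ± 524 CPM (mean ± SD over 10 mice), C1qb 6272 ± 437 and C1qc 4796 ± 304. Among the subsets, C1qa was at 7742 ± 731 in Res-Txniphi cells (n = 10), 7575 ± 851 in Res-S100hi (n = 6), 6281 ± 426 in Res-MGL1hi (n = 7), 4650 ± 546 in the stress gene-rich IEG+ subset (n = 10) and 4522 ± 561 in Ccr2+ inflammatory macrophages (n = 4). The first pair in that order differed by less than the spread between mice, and so did the last. Below them came Saa3+ myeloid cells at 2907 ± 220 (n = 3) and monocytes at 1460 ± 600 (n = 2). B cells (120.5 ± 34.0), T cells (106.1 ± 31.8), ILC2 (91.2 ± 26.8), NK cells (91.4 ± 33.0) and gd T cells (89.5 ± 15.5) held C1qa at a like low level, and cDC1 the least, at 36.2 ± 10.9. After thinning to 2000 UMIs per cell, C1qa was counted in 97.2% of macrophages and in 20.7% of B cells (98.7% and 45% without thinning, at median depths of 10678 and 5394 UMIs). A separate small cluster of 36 cells with B cell markers is not counted among these B cells, and C1qa was found in 94.4% of its thinned cells (median depth 16734 UMIs). cDC2 stood between, at 491 ± 416 CPM with mice from 68.5 to 1322, a spread that is described further on.

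**Figure D1:**
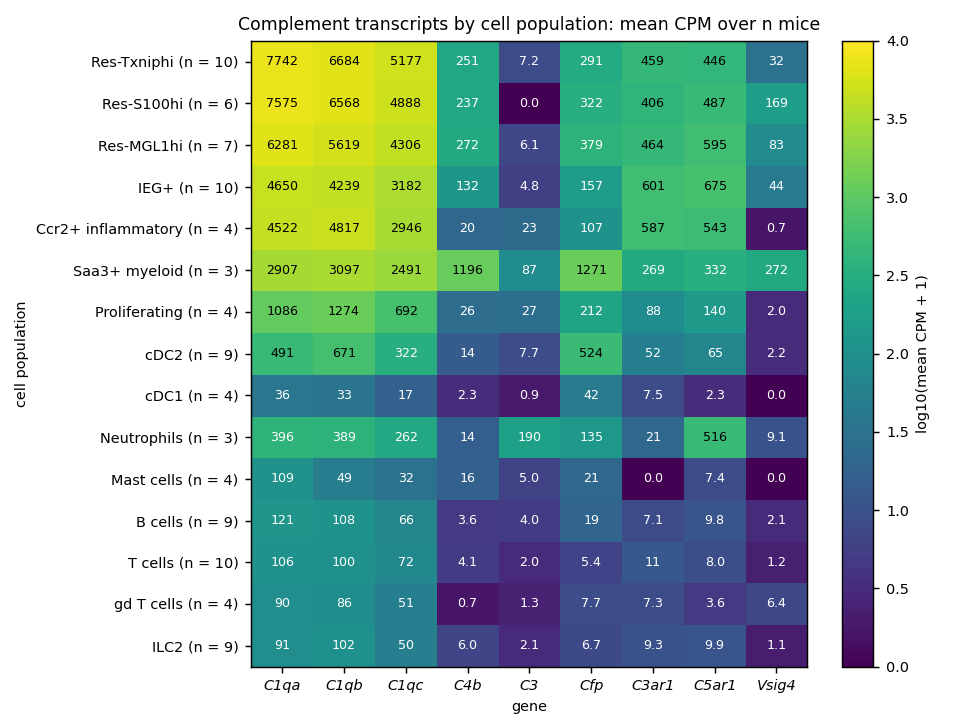
Heat map of the mean CPM of the 9 genes (columns) in 15 cell populations (rows), over the mice with at least 10 cells; the number in each field is the mean CPM and the color its log10(CPM + 1). C1q transcripts are high in every macrophage subset shown and near the level of free RNA in lymphocytes, whereas C4b, Cfp and Vsig4 are highest in Saa3+ myeloid cells. Monocytes are not shown.

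The chains did not keep 1 proportion in all cells. In resident macrophages C1qb UMIs were 0.878 ± 0.045 times the C1qa UMIs (n = 10, from 0.799 to 0.946). In IEG+ macrophages the ratio was 0.915 ± 0.055 (n = 10). In inflammatory macrophages it was 1.07 ± 0.07, and in each of the 4 mice it was above the value in that mouse's resident cells: 0.967 against 0.885 in mouse 2, 1.12 against 0.871 in mouse 7, 1.13 against 0.871 in mouse 9 and 1.07 against 0.870 in mouse 10. Monocytes (1.36 ± 0.09, n = 2) and cDC2 (1.46 ± 0.20, n = 9, from 1.18 to 1.77) had still more C1qb. In B cells, whose C1q is at the level of free RNA, the ratio was 0.879 ± 0.137 (n = 9). The ratios are a description without a test.

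**Figure D2:**
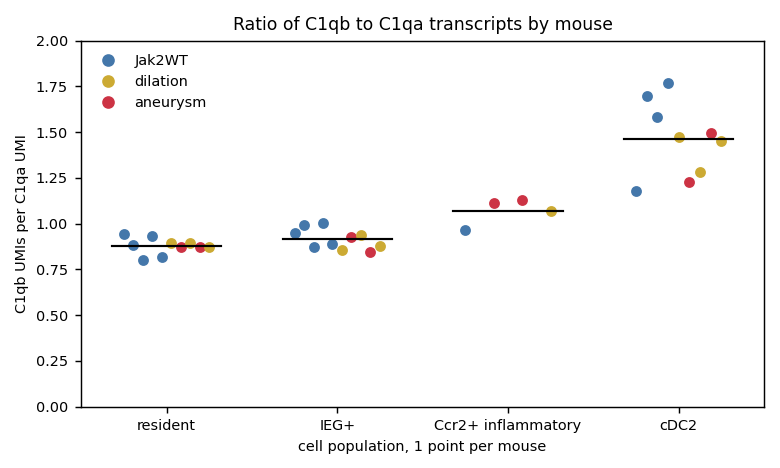
Ratio of C1qb to C1qa UMIs by population; each point is 1 mouse and lines are means over mice. All 9 cDC2 points (1.18 to 1.77) lie above all 10 resident macrophage points (0.799 to 0.946). The cDC2 points of Jak2WT mice 2, 4 and 5 rest on only 73, 34 and 105 C1q UMIs.

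C4b, a component of the classical pathway C3 convertase, was highest in Saa3+ myeloid cells, at 1139, 1061 and 1388 CPM in mice 5, 8 and 10. Those 208 cells held 62.2% of all C4b UMIs, and 77 and 99 of the cells came from mice 5 and 10. C4b stood at 270.5 ± 92.1 CPM in resident macrophages (n = 10), 132.2 ± 49.7 in IEG+ macrophages (n = 10) and 19.5 ± 12.7 in inflammatory macrophages (n = 4). B cells, T cells, gd T cells, ILC2 and cDC1 had means of 0.7 to 6.0 CPM. Thinned to 2000 UMIs, 85.5% of Saa3+ myeloid cells, 29.8% of resident macrophages and 0.561% of B cells had a C4b UMI (94.7%, 59.5% and 3.02% without thinning; median depths of 20074, 10357 and 5394 UMIs).

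C3 was scarce, with 1091 UMIs in all. Saa3+ myeloid cells held 27.9% of them (87.0 ± 41.6 CPM, n = 3) and the 47 non-leukocytes that passed the sort held 26.9% (591 CPM over the pooled cells; exact 95% interval 525 to 663, which covers counting error only). Among leukocytes the highest level was in neutrophils, at 127, 326 and 117 CPM in mice 3, 7 and 9. A C3 UMI was counted in 23.1% of thinned neutrophils and 0.561% of B cells (38.7% and 1.60% without thinning, at median depths of 4099 and 5394 UMIs). Resident macrophages gave 35 C3 UMIs in 578 cells (6.0 ± 6.3 CPM, n = 10), not above the 4.0 ± 6.1 of B cells.

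Cfp, properdin, was spread over myeloid cells. It was highest in Saa3+ myeloid cells (1374, 1102 and 1336 CPM in mice 5, 8 and 10), which held 40.8% of its UMIs. cDC2 came next at 524 ± 103 CPM (n = 9) and held a further 20.9%. Resident macrophages had 329.6 ± 64.3 CPM (n = 10), IEG+ macrophages 157.4 ± 62.0 and inflammatory macrophages 107 ± 39.4. cDC1 had 41.9 ± 12.8 CPM (n = 4), against 18.9 ± 12 in B cells and 5.4 ± 2.9 in T cells.

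The anaphylatoxin receptors were found in every macrophage subset. Among the subsets with at least 3 mice, C3ar1 ranged from 406 ± 68 CPM in Res-S100hi to 601 ± 63 in IEG+ macrophages, and C5ar1 from 446 ± 78 in Res-Txniphi to 675 ± 110 in IEG+ macrophages. Monocytes were lower, at 186 CPM for C3ar1 and 279 CPM for C5ar1 over the pooled cells. Neutrophils differed between the receptors: C5ar1 was at 494, 459 and 596 CPM in mice 3, 7 and 9, whereas C3ar1 was at 20.8 ± 36.0 CPM. After thinning, 64.8% of neutrophils had a C5ar1 UMI and 0.926% a C3ar1 UMI; in B cells the shares were 2.62% and 1.50% (without thinning 78.4% and 5.41% of neutrophils, 6.58% and 4.98% of B cells, at the depths above).

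Vsig4 was at 317, 187 and 311 CPM in the Saa3+ myeloid cells of mice 5, 8 and 10, and these cells held 59.4% of its 2201 UMIs. Among macrophages, Res-S100hi cells had 169 ± 90.9 CPM (n = 6), Res-MGL1hi 83.0 ± 64.8 (n = 7), IEG+ 44.4 ± 85.9 (n = 10), Res-Txniphi 31.7 ± 29.4 (n = 10) and inflammatory macrophages 0.7 ± 1.0 (n = 4); mice of neighbors in this order overlapped. In IEG+ macrophages 149 of 243 UMIs came from mouse 6. Few cells carried the transcript: 8.0% of thinned resident macrophages and 0.374% of B cells had a UMI (13.0% and 1.25% without thinning).

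Over the 15 populations with at least 3 mice, the genes whose mean log2(CPM + 10) ran most like each member were taken by Pearson's r, which is given as a description, since all populations share 1 library. C1qa ran closest to C1qc (0.995), C1qb (0.989) and Pf4 (0.986), and C1qb to C1qc (0.997) and C1qa. C1qc ran closest to C1qb, C1qa and Pf4 (0.983), and C3ar1 to Sash1 (0.983), C1qb and C1qc. C4b followed Tnfsf13 (0.968), Ednrb (0.963) and the lectin pathway gene Fcna (0.957), and Vsig4 followed Fcna (0.933), Gprc5b (0.929) and C4b (0.924). C3 ran with Clec4d (0.972), Msrb1 and Tgm2 (both 0.960), Cfp with Lyz2 (0.939), Itgam (0.935) and App (0.928), and C5ar1 with Fgd4 (0.963), Anxa3 (0.957) and Slc11a1 (0.951).

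In resident macrophages, Vsig4 was the member that differed between genotypes. It was at 35.1, 31.2, 45.5, 29.4 and 70.4 CPM in Jak2WT mice 1 to 5 and at 89.2, 77.1, 121.3, 138.3 and 76.1 CPM in mutant mice 6 to 10. Every mutant mouse was above every Jak2WT mouse. The fitted log2 fold change was 1.18 (SE 0.24, adjusted p = 0.0276, edgeR quasi-likelihood test with Benjamini-Hochberg adjustment over 6410 genes). Of the 8 members tested, 1 was called higher, where 0.608% of all genes tested were, and the same member was the 1 without overlap, where 1.44% of all genes were higher without overlap.

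That call was not firm. These values rest on 506 UMIs, 8 to 47 per Jak2WT mouse and 55 to 130 per mutant mouse. The adjusted p rose to 0.113, 0.0661, 0.0541 and 0.0911 without mouse 1, 3, 8 or 9, and when macrophages were clustered at resolution 0.5 the log2 fold change was 0.32 (adjusted p = 0.865). The makeup of the resident cells moved with genotype: Res-Txniphi cells, the subset with the least Vsig4, were 75.0%, 31.6%, 82.4%, 74.1% and 57.7% of them in Jak2WT mice 1 to 5 and 29.3%, 30.8%, 29.8%, 21.7% and 35.4% in mutant mice. Within Res-Txniphi cells alone Vsig4 was at 10.3, 0, 17.8, 44.2 and 5.7 CPM in Jak2WT and at 6.6, 80.7, 36.2, 36.4 and 79.1 CPM in mutant mice, which overlap, and it did not pass the filter on low counts there. Summed stress genes of dissociation were also unequal, at 10942 to 19350 CPM in Jak2WT and 18015 to 20272 CPM in mutant resident cells with 0 of 7 genes at 0, as were the 5 cDC2 markers (7.4 to 35 and 29.8 to 127.6 CPM, with 1 and 0 genes at 0) and the 5 B cell markers (319 to 390 and 194 to 328 CPM, with 1 gene at 0 in each); their part in the result was not tested.

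**Figure D3:**
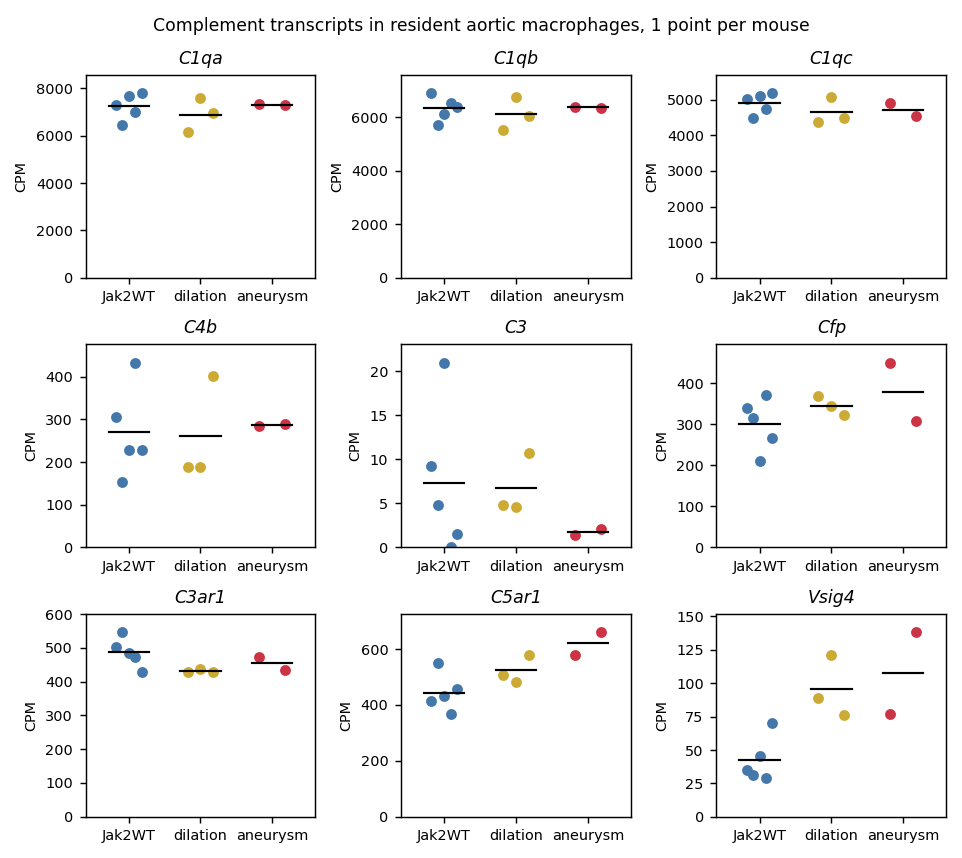
CPM of the 9 genes in resident macrophages of each mouse, by group (Jak2WT, dilation, aneurysm); short lines are group means. The 5 Jak2WT values of Vsig4 (29.4 to 70.4) lie below the 5 mutant values (76.1 to 138.3), and for the C1q genes the groups overlap.

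The other members did not pass. C1qa was at 6458 to 7805 CPM in Jak2WT and 6158 to 7576 CPM in mutant mice (log2 fold change −0.02, SE 0.07, adjusted p = 0.957). C1qb (−0.02, SE 0.07), C1qc (−0.06, SE 0.07), C4b (0.05, SE 0.24), Cfp (0.26, SE 0.15) and C3ar1 (−0.13, SE 0.09) likewise overlapped between genotypes. C5ar1 was at 414.3, 551.6, 430.9, 367.6 and 456.6 CPM in Jak2WT and at 508.1, 579.3, 483.5, 660.8 and 580.1 CPM in mutant mice. Jak2WT mouse 2 lay within the mutant range, and the log2 fold change of 0.35 (SE 0.12) had an adjusted p of 0.178 by edgeR. It was called higher with the hashtag caller MULTIseqDemux (0.53, adjusted p = 0.0238) and without the filter on low counts (0.40, adjusted p = 0.0409). C3 was too low to be tested. The median over the 8 members was 0.02 on the log2 scale, against −0.01 over all genes tested. Of 47 other pathway genes 12 were tested and 0 were called by edgeR or by DESeq2 (2 at an unadjusted p under 0.05); the largest log2 fold changes were those of the C5a receptor C5ar2 (0.75, adjusted p = 0.324), Cd93 (−0.58, adjusted p = 0.442) and Fcna (0.51, adjusted p = 0.133).

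Among the mutant mice, resident macrophages of the 2 mice with aneurysm were compared with those of the 3 with dilation. C1qa was at 7327 and 7300 CPM with aneurysm and at 6158, 7576 and 6950 CPM with dilation, and Vsig4 at 77.1 and 138.3 against 89.2, 121.3 and 76.1 CPM. The groups overlapped for every tested member. Of 8 members tested 0 were called by edgeR or DESeq2 (0 at an unadjusted p under 0.05), as were 0% of all 6987 genes (354 at an unadjusted p under 0.05), and their median log2 fold change was 0.09 against −0.01 over all genes. C3 rested on 21 UMIs and was not tested. Of 13 pathway genes 0 were called by either tool (2 at an unadjusted p under 0.05), with the largest values for the regulators Thbd (1.21, adjusted p = 0.513) and Cd55 (0.81, adjusted p = 0.976) and for Cd93 (0.58, adjusted p = 0.976).

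Over all 1727 macrophages, 0 of 9 members were called between genotypes by edgeR or DESeq2 (0 at an unadjusted p under 0.05), and 0% of 8166 genes were called by edgeR (967 at an unadjusted p under 0.05; 51 by DESeq2). Vsig4 was at 16.4 to 50.0 CPM in Jak2WT and 16.6 to 149.5 CPM in mutant mice (log2 fold change 1.12, SE 0.54, adjusted p = 0.435). The median over the members was 0.01, against −0.01 over all genes. Of 14 pathway genes 0 were called by either tool (2 at an unadjusted p under 0.05); C2, a serine protease of the classical pathway, had the largest value (−0.93, adjusted p = 0.358), before the integrin gene Itgax (0.55, adjusted p = 0.811) and C5ar2 (0.44, adjusted p = 0.387).

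The largest differences were between macrophage subsets of the same mice. Inflammatory and resident macrophages were compared in mice 2, 7, 9 and 10, the mice with at least 10 cells of both, with the mouse as a block; 219 and 147 of the 421 inflammatory cells came from the aneurysm mice 7 and 9. Of 9 members 5 were lower in inflammatory macrophages, where 9.93% of 6931 genes were, and 2 were higher, where 10.6% of genes were. Vsig4 and C4b among the lower and C3 among the higher passed the filter on low counts only through the group in which they were high. These genes are also part of the counts above and of the median below. The median over the members was −0.50 on the log2 scale, against −0.02 over all genes.

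Vsig4 fell from 31.2, 77.1, 138.3 and 76.1 CPM in the resident cells of mice 2, 7, 9 and 10 to 0, 0.7, 2.1 and 0 CPM in their inflammatory cells, that is 0, 2, 5 and 0 UMIs (log2 fold change −6.06, SE 0.35, adjusted p = 4.92e-09). C4b fell from 153.5, 284.7, 289.4 and 402.9 to 36.4, 11.8, 8.1 and 21.9 CPM (−4.37, SE 0.31, adjusted p = 3.82e-08), and Cfp from 314.2, 450.2, 307.5 and 322.3 to 138.3, 123.1, 116.3 and 49.3 CPM (−1.57, SE 0.20, adjusted p = 2.73e-05). C1qa fell from 6458, 7327, 7300 and 6950 to 5241, 4611, 4334 and 3903 CPM (−0.50, SE 0.13, adjusted p = 0.0116) and C1qc by 0.52 on the log2 scale (SE 0.13, adjusted p = 0.0101). C1qb, at 6125 ± 314 and 4817 ± 444 CPM, did not pass (−0.21, SE 0.13, adjusted p = 0.278).

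C3 rose in inflammatory macrophages, from 4.8, 1.4, 2.1 and 10.7 to 43.7, 12.2, 14.9 and 21.9 CPM (2.36, SE 0.48, adjusted p = 0.00192), that is from 2, 1, 2 and 12 UMIs to 6, 33, 35 and 4 UMIs. It is through the inflammatory sums that C3 passed the filter on low counts. C3ar1 rose from 546.8, 472.7, 435.2 and 428.8 to 618.7, 585.5, 558.8 and 586.5 CPM (0.47, SE 0.15, adjusted p = 0.0369). C5ar1 was at 593 ± 47 and 543 ± 117 CPM (0.01, SE 0.17, adjusted p = 0.991). The calls of C1qa and C3ar1 were lost without mouse 7, 9 or 10 (adjusted p 0.0515 to 0.0769 and 0.0755 to 0.190), that of C1qc without mouse 7 (0.103), and all 3 when IEG+ cells were counted as resident. Summed stress genes were at 5944 and 9405 CPM in the inflammatory cells and at 18015 to 19532 CPM in the resident cells of the aneurysm mice 7 and 9, with 0 of 7 genes at 0. In mice 2 and 10 the inflammatory cells were at 13947 and 17984 CPM, and the part of stress genes in these results was not tested.

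**Figure D4:**
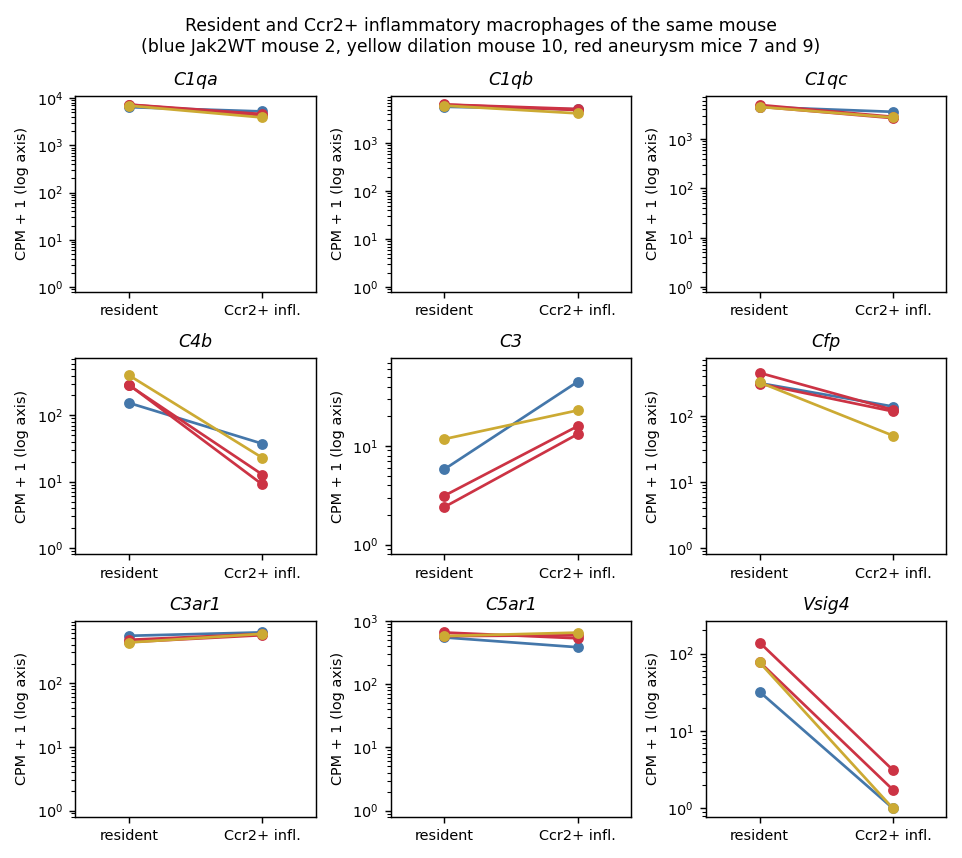
CPM of the 9 genes in resident and Ccr2+ inflammatory macrophages of mice 2, 7, 9 and 10, as CPM + 1 on log axes; each line joins the subsets of 1 mouse. Vsig4, C4b and Cfp go down in all 4 mice, C3 and C3ar1 go up in all 4, and C5ar1 does not go 1 way.

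Of the 47 pathway genes, 13 were tested in this comparison, of which 5 were lower and 2 higher. Among the lower were Fcna, a ficolin (463 ± 120 to 11.4 ± 8.5 CPM, −5.03), Cfb, factor B (−1.73, adjusted p = 0.0335), Thbd (−1.40, adjusted p = 0.0165) and Itgam, the alpha chain of complement receptor CR3 (−0.64, adjusted p = 0.0145). Itgax, the alpha chain of CR4, rose from 0.9 ± 1.3 to 66.3 ± 53.9 CPM (5.77, adjusted p = 1.13e-06), and Cd93 rose by 1.47 on the log2 scale (adjusted p = 4.99e-05). Itgax passed the filter on low counts only through the inflammatory sums, and Fcna only through the resident sums. Both are high in the group that let them in. The median of the 13 was 0.06.

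Within the resident cells, Res-MGL1hi and Res-Txniphi macrophages were compared in 7 mice (2 and 5 to 10), with the mouse as a block. C1qa was at 5600, 6438 and 6907 CPM (lowest, median and highest mouse) in Res-MGL1hi and at 6457, 7588 and 8781 CPM in Res-Txniphi cells, and it was lower in 7 of 7 mice (−0.23, SE 0.07, adjusted p = 0.0207). C5ar1 was at 595 ± 95 against 482 ± 45 CPM (0.38, SE 0.11, adjusted p = 0.0204). Of 7 members tested these 2 were called, 1 higher, where 10.7% of 3448 genes were, and 1 lower, where 6.06% of genes were. By DESeq2 neither passed (adjusted p = 0.138 and 0.0845), C1qa did not pass without the filter (0.275) or C5ar1 at resolution 1.2 (0.0762), and both calls were lost on leaving out some single mice (mouse 2, 5, 8 or 9 for C1qa and mouse 7, 8, 9 or 10 for C5ar1; adjusted p 0.0546 to 0.0861). C4b (0.40, adjusted p = 0.0501) and Cfp (0.38, adjusted p = 0.0907) lay near the threshold, and C3 and Vsig4 were not tested. Calls were also gained: C1qb and C1qc were called lower with all variable genes, with MULTIseqDemux, at resolution 1.2 and without mouse 7 (adjusted p 4.77e-04 to 0.0439). C4b was called higher without the filter and without mouse 2 or 10 (0.0100 to 0.0403), Cfp without the filter, at resolution 1.2 and without mouse 9 (0.00995 to 0.0169), and C3ar1 with MULTIseqDemux (0.00825). Vsig4 was at 13.1, 90.6 and 201.4 CPM (lowest, median and highest mouse) in Res-MGL1hi and at 0, 36.2 and 80.7 CPM in Res-Txniphi cells. The median over members was 0.13, against −0.02 over all genes. Of 9 pathway genes tested, Fcna was higher in Res-MGL1hi cells (614 ± 142 against 249 ± 87 CPM, 1.34, adjusted p = 3.72e-06), Cd93 (−1.03, adjusted p = 0.00603) and the C1q-binding receptor Lrp1 (−0.72, adjusted p = 8.07e-04) were lower.

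In cDC2, the type 2 conventional dendritic cells, C1q transcripts were higher in every mutant mouse than in Jak2WT mice 2, 4 and 5. This did not hold for Jak2WT mouse 1 in all C1q genes, and the difference between genotypes did not pass the test. C1qa was at 361.2, 78.1, 68.5 and 111.6 CPM in Jak2WT mice 1, 2, 4 and 5 and at 362.3, 710.4, 1322.1, 824.4 and 580.3 CPM in mutant mice 6 to 10; mouse 3 had 7 cDC2 and was left out. The lowest mutant mouse was just above the highest Jak2WT mouse. For C1qc the genotypes overlapped, with 263.8 CPM in Jak2WT mouse 1 and 238.9 CPM in mutant mouse 6. In Jak2WT mice 2, 4 and 5 C1qa lay below the mean of B cells given above, a level read as free RNA. Expression in the cDC2 of these mice cannot be told from that background, and the C1qa fold change starts in part from it. The log2 fold changes were 2.24 for C1qa (SE 0.45, adjusted p = 0.155), 2.20 for C1qb (SE 0.38, adjusted p = 0.0709) and 2.25 for C1qc (SE 0.53, adjusted p = 0.232), none of them past the threshold. C3ar1 (1.56, adjusted p = 0.431) and C5ar1 (1.69, adjusted p = 0.356) pointed the same way, and Cfp was at 570 ± 126 and 487 ± 75 CPM (−0.26, adjusted p = 0.743).

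Of 6 members tested in cDC2 0 were called by edgeR, where 0.0473% of 4226 genes were. By edgeR 5 members had an unadjusted p under 0.05, as had 346 of the 4226 genes. DESeq2 called 2 members, C1qa and C1qb, and 22 of all genes. C1qa and C1qb did not overlap between genotypes, where 2.22% of all genes were higher without overlap. Without Jak2WT mouse 1 the log2 fold changes were 3.03 for C1qa (adjusted p = 0.00800), 2.72 for C1qb (0.00813), 3.29 for C1qc, 3.35 for C3ar1 and 3.23 for C5ar1 (0.0127 for each of these 3), all by edgeR. The Jak2WT side of the receptors then rested on very few counts. In Jak2WT mice 2, 4 and 5 C3ar1 had 1, 1 and 3 UMIs and C5ar1 1, 0 and 6 UMIs. Mutant mice had 17 to 152 and 31 to 169 UMIs, and it is through them that both genes passed the filter. Without the filter on low counts the same 5 genes were called with all mice, with log2 fold changes of 1.66 to 2.35 and adjusted p from 8.22e-09 (C1qb) to 0.0190 (C3ar1). The median over the 6 members tested was 1.95, against −0.01 over all genes. C3, C4b and Vsig4 did not pass the filter, and C3ar1 and C5ar1 passed it through the mutant mice. This median therefore does not describe the members as a set. Of 8 pathway genes 0 were called by either tool (2 at an unadjusted p under 0.05), and those with large values included C1qbp (−0.50, adjusted p = 0.448) and Itgax (−0.33, adjusted p = 0.845).

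The C1q of cDC2 was concentrated in few cells. Of 390 cDC2, 54 had at least 5000 CPM of C1q, and these held 81.0% of the C1q UMIs of the type. They were 2 of 15, 0 of 20, 0 of 7, 0 of 11 and 0 of 21 cDC2 in Jak2WT mice 1 to 5 and 3 of 26, 14 of 109, 11 of 34, 18 of 100 and 6 of 47 in mutant mice 6 to 10. A count of 0 allows a share of up to 15.0%, 42.9%, 27.3% and 14.3% in mice 2 to 5. The 54 cells had less of the dendritic cell markers Cd209a (71.2 against 667 CPM) and Flt3 (4.0 against 55.7 CPM) than the other cDC2, with similar median depth (15920 against 15355 UMIs). They had more of the macrophage markers Csf1r (652 against 145 CPM), Mrc1 (938 against 272 CPM), Lyve1 (333 against 6.8 CPM), Adgre1 (228 against 62.9 CPM) and Fcgr1 (71.2 against 16.9 CPM). Ccr2 was at 775 against 550 CPM, with 51.3 CPM in resident macrophages, 313 CPM in inflammatory macrophages and 855 CPM in monocytes. The antigen presentation gene H2-Ab1 was at 5998 CPM in the 54 cells and 10899 CPM in the other cDC2, against 1422 CPM in resident macrophages, 2726 CPM in inflammatory macrophages and 6458 CPM in monocytes. All macrophage markers given here were thus higher in the 54 cells than in the other cDC2, and both dendritic cell markers given here were lower. The other cDC2 markers (Klrd1, Napsa and H2-DMb2) and the macrophage marker Cd68 were not compared. Ccr2 and H2-Ab1 of the 54 cells were above those of resident and inflammatory macrophages and below those of monocytes. Which cell type the 54 cells are was not tested. C1qb to C1qa was 1.28 in them and 1.75 in the other cDC2.

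**Figure D5:**
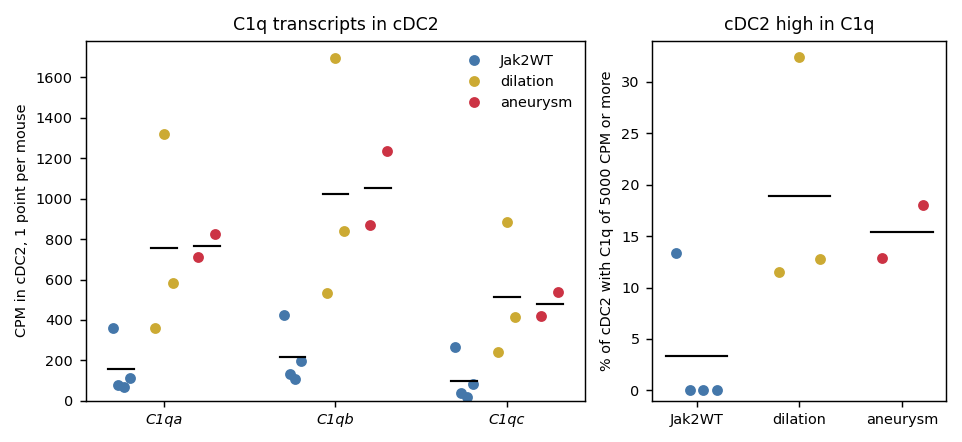
C1q in cDC2, 1 point per mouse with at least 10 cDC2: CPM of the C1q genes (left) and the percentage of cDC2 with at least 5000 CPM of C1q (right), with group means as lines. Jak2WT mice 2, 4 and 5 have 0% of these cells, Jak2WT mouse 1 has 13.3% (2 of 15 cells) and mutant mice have 11.5% to 32.4%, so the groups overlap.

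Among the 153 cDC2 with no UMI of the macrophage genes Fcgr1, Adgre1 and Lyve1, a selection made after the values were seen, C1qa was at 59.6 and 18.7 CPM in Jak2WT mice 2 and 5 and at 44.2, 132.6, 80.4 and 157.5 CPM in mutant mice 6, 7, 9 and 10. C1qb was at 79.4 and 74.9 CPM in those Jak2WT mice and at 63.1, 176.8, 72.6 and 388.3 CPM in those mutant mice. The groups overlap in both genes, and the log2 fold changes were 1.25 (C1qa, adjusted p = 0.681), 1.08 (C1qb, adjusted p = 0.778) and 1.53 (C1qc, adjusted p = 0.707). Over all cDC2, the 6 macrophage markers summed to 498 to 1165 CPM in Jak2WT and 698 to 1419 CPM in mutant mice, with 0 genes at 0.

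The genotype effect on C1q differed between cDC2 and resident macrophages. The difference per mouse in log2(CPM + 10) between resident macrophages and cDC2 was 5.75 for C1qa in Jak2WT and 3.32 in mutant mice, lower by 2.43. In Jak2WT mice 2, 4 and 5 the cDC2 side of this difference was below the C1qa mean of B cells. C1qb differed by −2.34 and C1qc by −2.69. In each of these 3 genes 5 of 5 mutant mice lay below all 4 Jak2WT mice, and p was 0.00794, the smallest that the exact permutation test of 4 against 5 mice can give (two-sided, 9 tests, not adjusted). The test was run on the 9 genes alone, so the share of all genes with such a difference is not known. C3ar1 differed by −1.84 (p = 0.0238) and C5ar1 by −1.71 (p = 0.0397), and Vsig4 by 0.89 in the other direction (p = 0.0556, all by the exact permutation test). The calls of C3ar1 and C5ar1 were lost on leaving out any single mouse other than mouse 1 (exact p 0.0536 to 0.0857 and 0.0893 to 0.143). In the cDC2 of Jak2WT mice 2, 4 and 5, C3ar1 rested on 1, 1 and 3 UMIs and C5ar1 on 1, 0 and 6 UMIs. The added 10 CPM therefore weighed on the Jak2WT side of both receptors. Without the cells that carried macrophage transcripts, the 2 Jak2WT and 4 mutant mice left cannot go below an exact p of 0.0667, so that no difference could pass. The difference of C3ar1 was then −1.67, at that smallest p, that of C1qa −1.26, of C1qc −1.20, of C5ar1 −0.99 and of C1qb −0.74.

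Surface proteins gave no called difference. The panel held antibodies to CD21/35 (complement receptors CR2 and CR1), CD55 (decay-accelerating factor), CD11b and CD11c. CD55 was at 106.6 ± 8.9 antibody UMIs per cell in B cells (n = 9) and 88.3 ± 16.4 in mast cells (n = 4), against 3.9 ± 2.6 in resident macrophages. CD11b was highest in Saa3+ myeloid cells (1992 ± 323, n = 3), then in neutrophils (678 ± 56, n = 3). In resident macrophages CD11b was at 170 ± 63 in Jak2WT and 269 ± 40 in mutant mice (exact permutation test, p = 0.0317, adjusted p = 0.238 over 12 pairs of antibody and cell type). Of the 12 pairs 0 passed after adjustment and 2 had an unadjusted exact p under 0.05, the other being CD21/35 in resident macrophages, at 0.233 ± 0.122 and 0.402 ± 0.036 counts per cell. Over all 10 mice that antibody was at 0.318 ± 0.122 in these cells. Isotype controls there were at 0.456 ± 0.285 (hamster), 0.379 ± 0.175 (rat IgG1), 0.111 ± 0.084 (rat IgG2b) and 0 (rat IgG2a), so it was not above all of them. In B cells it was at 0.373 ± 0.240, against 0.098 ± 0.083 (hamster), 0.079 ± 0.051 (rat IgG1), 0.034 ± 0.027 (rat IgG2b) and 0 (rat IgG2a). Rat IgG2a was at 0 in every population, so it gives no background level. Within the resident cells, CD11b was at 364 ± 88 and CD21/35 at 0.465 ± 0.184 in Res-MGL1hi (n = 7). In Res-Txniphi cells (n = 10) they were at 134 ± 25 and 0.172 ± 0.126. Isotype controls were also higher in Res-MGL1hi, at 0.679 ± 0.419 (hamster) and 0.582 ± 0.206 (rat IgG1). In Res-Txniphi cells they were at 0.363 ± 0.234 and 0.238 ± 0.101. CD21/35 was below both of these controls in both subsets, so its levels there cannot be read as receptor. The shares of these subsets moved with genotype, and their part in the antibody differences was not tested.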

How the data were processed

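The authors deposited raw UMI counts per cell barcode (CITE-seq, 3′ libraries, Cell Ranger, mm10) for 32285 genes, 75 antibodies and 10 hashtags in 8471 barcodes. The deposited counts are whole and unnormalized, and hold all 10 mice of 1 run. CPM is not scaled to gene length, so levels are compared between cells and not between genes. HTODemux at a quantile of 0.99 assigned 5857 barcodes to 1 mouse. The 2265 with more than 1 hashtag and 349 with none were left out, as were cells with over 10% mitochondrial counts. No other doublet caller was run, and hashtags do not show doublets within a mouse.

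Cells were clustered in Seurat 5.3.0 (2000 variable genes without the complement genes, 20 principal components, 20 neighbors, resolution 0.3; macrophages again at 0.8 with 100 random starts) and named by the scores of marker lists. Details were settled after values had been seen. Counts were summed per mouse, with at least 10 cells, filtered by filterByExpr and tested with edgeR 4.0.16 (TMM, quasi-likelihood F test, two-sided, Benjamini-Hochberg over all genes tested, threshold 0.05) in R 4.3.3. The mouse was the replicate. The standard error is the absolute log2 fold change over the square root of F. Sums of 2 subsets of the same mouse were paired by animal, with the mouse as a block. Single values were compared by exact permutation tests, left unadjusted for the 9 differences of genotype effect, although an adjustment over the 9 genes had been planned. Intervals are exact and cover counting error only.

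All 9 genes are named in every comparison; other pathway genes are named where they pass a test or, among genes past the filter, have the 3 largest absolute log2 fold changes. A few genes that these rules name are not reported here. The genes and lists were chosen with earlier results of these data known. Alternatives were DESeq2 1.42.0, no filter on low counts, each mouse left out, MULTIseqDemux, a mitochondrial limit of 5%, macrophage resolutions of 0.5 and 1.2, clustering with all variable genes, low-RNA clusters kept, IEG+ cells counted as resident, classes by surface CD163, the 3 groups in 1 fit, no block, a pseudocount of 1 CPM and scaled antibody counts. Chosen after the data were seen were Res-Txniphi cells alone and cDC2 without macrophage transcripts, and for the differences of genotype effect also the other clustering and hashtag settings. The fit was tested on simulated counts.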

Additional observations from a re-analysis of the deposited data

Results flagged for a closer look

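In 7 of 81 groups of 4 or 5 mice examined, 1 mouse stood apart from the rest of its group. The rule used flags about 1 in 20 groups where values are independent and normally spread. These groups share mice and cells and some rest on few counts, so their number cannot be set against that rate. In resident macrophages, C3ar1 was at 472.7 CPM in mutant mouse 7 against 428.5 to 436.5 CPM in the other mutant mice. In all macrophages, Vsig4 was at 50.0 CPM in Jak2WT mouse 5 against 16.4 to 22.9 CPM. In IEG+ macrophages, Vsig4 was at 286.9 CPM in mutant mouse 6 against 15.5 to 26.9 CPM in the others. In cDC2, Jak2WT mouse 1 was high in C1qa (361.2 CPM against 68.5 to 111.6 CPM) and C3ar1 (77.1 CPM against 3.4 to 11.2 CPM). Cfp in cDC2 was low in Jak2WT mouse 5 (383.1 CPM against 607.9 to 645.3 CPM), and Vsig4 in cDC2 was at 11.4 CPM in mutant mouse 7 against 0 to 2.6 CPM.

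The genotype effect differed between resident macrophages and cDC2 for 5 of the 9 genes by the exact permutation test (unadjusted), by −2.43 for C1qa, −2.34 for C1qb, −2.69 for C1qc, −1.84 for C3ar1 and −1.71 for C5ar1 on the log2 scale. For C3ar1 and C5ar1 the cDC2 of Jak2WT mice 2, 4 and 5 held only 0 to 6 UMIs. Those of C3ar1 and C5ar1 lost their calls on leaving out any single mouse other than mouse 1. Those of the C1q genes could not be lost in this way. Every mutant mouse lay below every Jak2WT mouse, so their exact permutation p stayed at its smallest value, 0.0179 or 0.0286. Only the 9 genes were put to this test, so no share over all genes can be set beside that count. Cells with at least 5000 CPM of C1q made up 0% to 13.3% of the cDC2 of a Jak2WT mouse and 11.5% to 32.4% of those of a mutant mouse. These shares overlap, and the part of such cells in the C1q differences was not tested.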

How the results depend on the processing

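The counts of called genes changed with the processing, and the cause was not tested. Between genotypes in resident macrophages 56 genes were called, and the count was 98 with DESeq2, 316 without the filter on low counts, 156 when clustering with all variable genes, 225 with MULTIseqDemux, 143 with a mitochondrial limit of 5%, 4 at resolution 0.5, 95 with low-RNA clusters kept, 35 with IEG+ cells, 16 with classes by surface CD163 and 0 in Res-Txniphi cells alone, where fewer cells were tested, and it ran from 6 (without mouse 1) to 146 (without mouse 2) when 1 mouse was left out, with 15 without mouse 3, 28 without mouse 6, 34 without mouse 7, 12 without mouse 9 and 32 without mouse 10. Between aneurysm and dilation 0 genes were called, and the count was 64 without the filter, 6 with all variable genes, 6 with MULTIseqDemux, 7 at the 5% limit, 1 at resolution 0.5, 2 with IEG+ cells, 2 by surface CD163, and 0 to 15 (without mouse 9) when 1 mouse was left out, a lone aneurysm mouse being assumed to vary like the other group. In cDC2 2 genes were called, and the count was 22 with DESeq2, 78 without the filter, 0 with MULTIseqDemux and 0 without cells carrying macrophage transcripts, and 1 to 15 (without mouse 1) when 1 mouse was left out. Over all macrophages the 0 called genes became 51 with DESeq2, 23 without the filter, 120 with the 3 groups in 1 fit, and 0 to 2 when 1 mouse was left out. Between inflammatory and resident cells 1426 genes were called and 831 to 1380 when 1 mouse was left out, with the lowest count without mouse 7, and between Res-MGL1hi and Res-Txniphi cells 577, or 373 with DESeq2. Of the 9 differences of genotype effect 5 passed, 3 to 5 when 1 mouse was left out, and 0 without cells carrying macrophage transcripts, where too few mice were left for any to pass. No other gene was put to that test.

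The called increase of Vsig4 in mutant resident macrophages kept its direction and lost its call also at the 5% limit (adjusted p = 0.0602), with IEG+ cells (0.105) and by surface CD163 (0.257). C4b, Cfp, Vsig4 and C3 kept their calls and directions between inflammatory and resident cells in every alternative run, whereas C3ar1 lost its call in 10 of them. Vsig4, C4b and C3 had entered the main test only through the group in which they were high. Directions that changed belonged to values that were not called. In resident macrophages between genotypes these were C1qa (0.0287 without the filter, 0.0327 at resolution 0.5, 0.0413 with IEG+ cells, −0.0643 to 0.0222 without a mouse), C1qb (0.0362, 0.0264 and 0.0179 in the same order, −0.0532 to 0.0248 without a mouse), C1qc (0.00558 with IEG+ cells), C3ar1 (0.0250 with MULTIseqDemux), C4b (−0.00332 at the 5% limit, −0.0293 by surface CD163, −0.172 in Res-Txniphi cells, −0.150 to 0.285 without a mouse) and Cfp (−0.128 at resolution 0.5, −0.124 by surface CD163). Between aneurysm and dilation they were C1qb (−0.0166 to 0.126 without a mouse), C1qc (−0.0103 with all variable genes, −0.0369 at the 5% limit, −0.00979 with low-RNA clusters, −0.0120 with IEG+ cells, −0.0461 to 0.0776 without a mouse), C4b (−0.0824 to 0.591 without a mouse), Cfp (−0.175 to 0.366 without a mouse) and Vsig4 (−0.577 with all variable genes, −0.449 with MULTIseqDemux, −0.717 at the 5% limit, −0.136 with low-RNA clusters, −0.532 with IEG+ cells, −0.605 by surface CD163, −0.303 to 0.544 without a mouse). C5ar1 between inflammatory and resident cells was −0.000182 without the filter, −0.00557 with all variable genes, −0.144 with MULTIseqDemux, −0.130 at the 5% limit, −0.0727 with low-RNA clusters, −0.240 with IEG+ cells, −0.271 by surface CD163 and −0.106 to 0.132 without a mouse. C4b between Res-MGL1hi and Res-Txniphi cells was −0.0120 with MULTIseqDemux, and its difference of genotype effect was 0.0834 with all variable genes. Over all macrophages C3ar1 (−0.0339 to 0.0868), C1qb (−0.0377 to 0.0695) and C4b (−0.469 to 0.0468) turned without a mouse. Among antibodies CD11c in resident macrophages turned on scaling to the total (−0.262) and without a mouse (−0.00151 to 0.236), and in B cells CD55 (−0.103 to 0.0207) and CD11b (−0.350 to 0.432) turned without a mouse.

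Without the mouse as a block, 1675 genes were called between inflammatory and resident cells and 566 between Res-MGL1hi and Res-Txniphi cells. No member's call changed, and C4b in the latter had an adjusted p of 0.270 in place of 0.0501. Resolution 0.5 gave no Res-Txniphi cluster and therefore no value there. Depth limited the scarcest transcripts: C3 (35 UMIs in resident macrophages) and Vsig4 (506) rested on few counts. C1qa was at 121 ± 34.0 CPM (SD, n = 9 mice) in B cells and 106 ± 31.8 CPM (n = 10 mice) in T cells, and levels of C1qa near these cannot be read as expression from the level alone.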
